A study of Mus musculus with 12 samples.

Results

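Brush border peptidases are ectoenzymes anchored in the microvillar membrane of the kidney's proximal tubule, where they cut filtered peptides and glutathione into amino acids and dipeptides that neighbouring transporters take up. They also end or alter the action of peptide hormones, and some are released into urine when the tubule is damaged. The 8 genes described here were chosen by name: Mep1a and Mep1b (the meprin subunits), Anpep and Enpep (aminopeptidases N and A), Mme (neprilysin), Dpp4 (dipeptidyl peptidase 4), Dpep1 (renal dipeptidase) and Ggt1 (gamma-glutamyl transferase). Their deposited transcripts, 28 of 25790, were matched by Ensembl identifier and summed per gene, which gave 8 of 13465 genes. All 8 passed the filter on low values and were among 12469 tested genes.

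Bulk RNA from renal cortex was sequenced in 4 groups of 3 libraries. Mice with Gpx3, the gene of a secreted glutathione peroxidase, knocked out in renal tubular epithelial cells were sampled after ischemia-reperfusion injury (CKO IRI) or sham surgery (CKO sham). Wild-type mice were sampled after the same injury (WT IRI) or sham surgery (WT sham). The design text gives the injury as bilateral, with 30 min of ischemia and 48 h of reperfusion, and asks how tubular Gpx3 acts on kidney function. The strain, sex and age of the mice, the Cre driver and the deleted part of Gpx3 are not given in the sources used here. Whether the 3 libraries of a group came from different mice is not stated, and the p-values cover only the variation among libraries.

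The values were read as FPKM, fragments scaled to transcript length and library size, and each library summed to between 391002 and 422328 FPKM. The number of reads is unknown. Gpx3 measured between 2779 and 3723 FPKM in CKO IRI and between 1075 and 3568 FPKM in WT IRI, so it did not separate the genotype labels after injury. It measured between 2501 and 3299 FPKM in CKO sham and between 4476 and 5664 FPKM in WT sham. Directions between genotypes after injury are therefore given for the libraries as labelled. The extraction text in the labels describes joint capsule tissue, whereas 14 of 14 proximal tubule markers were in the table and 6 of 8 synovium and cartilage markers, among them Prg4, Acan and Col2a1, were not. Summed levels of those 14 proximal tubule markers were 4604 to 9898 FPKM in CKO IRI, 3058 to 6714 FPKM in WT IRI, 11591 to 13048 FPKM in CKO sham and 11213 to 11583 FPKM in WT sham. In bulk tissue, fewer cells of a type and less RNA per cell cannot be told apart.

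RefSeq promoter windows on GRCm38.p6, from 250 bases before to 50 after a start, were found for 7 of the members, 12 windows in all. Those of Mep1a, Dpep1 and Enpep are shown because the first of these had the largest injury fall among members with a window, Dpep1 the smallest p on injury, and Enpep no called change. Capitals mark TATAAA or its reverse complement TTTATA, the letters of a TATA box.
Mep1a chr17:43502724-43503023, minus strand: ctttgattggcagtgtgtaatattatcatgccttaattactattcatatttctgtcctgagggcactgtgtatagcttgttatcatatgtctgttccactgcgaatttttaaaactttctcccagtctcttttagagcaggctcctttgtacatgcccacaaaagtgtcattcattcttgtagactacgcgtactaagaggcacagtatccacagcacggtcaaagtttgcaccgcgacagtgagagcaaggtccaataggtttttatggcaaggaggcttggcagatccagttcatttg
Dpep1 chr8:123185985-123186284, plus strand: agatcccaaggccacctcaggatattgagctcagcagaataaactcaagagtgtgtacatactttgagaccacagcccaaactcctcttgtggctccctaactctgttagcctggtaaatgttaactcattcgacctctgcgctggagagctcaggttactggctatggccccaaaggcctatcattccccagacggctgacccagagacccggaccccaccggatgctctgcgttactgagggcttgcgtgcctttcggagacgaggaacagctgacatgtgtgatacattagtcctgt
Enpep chr3:129332700-129332999, minus strand: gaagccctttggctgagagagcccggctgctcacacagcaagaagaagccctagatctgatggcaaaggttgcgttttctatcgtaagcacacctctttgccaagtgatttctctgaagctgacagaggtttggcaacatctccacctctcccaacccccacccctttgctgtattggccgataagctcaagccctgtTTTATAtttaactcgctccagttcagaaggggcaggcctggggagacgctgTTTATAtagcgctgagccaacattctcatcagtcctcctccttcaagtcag
The window of Mep1a held 42.3% G and C, that of Dpep1 52.7% and that of Enpep 51.3%, against a median of 52.7% over 32851 windows. TATAAA on either strand was present in 3 of the 12 windows, belonging to Dpp4, Enpep and Ggt1 (1 of 4), and in 13.6% of all windows. A match or its lack describes these letters alone.

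In the uninjured WT cortex the peptidases spanned a wide range of FPKM, a level per transcript length. Ggt1 averaged 449 ± 24.6 FPKM (SD, n = 3) and Mep1a 432 ± 31.4 FPKM, and the libraries of this leading pair overlapped. Dpep1 followed at 120 ± 9.91 FPKM, then Anpep at 79.0 ± 4.2 and Mep1b at 73.4 ± 10.4 FPKM, whose libraries overlapped. The lowest were Enpep at 35.6 ± 4.15, Mme at 27.3 ± 2.42 and Dpp4 at 22.5 ± 0.86 FPKM, each clear of its neighbours. In WT sham libraries the 8 genes together made up 0.304% to 0.324% of the summed values. After injury the order at the bottom differed: in CKO IRI the libraries of every neighbouring pair below Mep1a overlapped, and in WT IRI Mep1b was listed last.

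Genome positions are those of GENCODE M21 on mouse build GRCm38. Mep1a lies on chromosome 17 (43474324 to 43502812, minus strand), Mep1b on chromosome 18 (21061923 to 21100199, plus strand) and Anpep on chromosome 7 (79821803 to 79861059, minus strand). Enpep (129269175 to 129332720, minus strand) and Mme (63241537 to 63386030, plus strand) share chromosome 3 at distant positions. Dpp4 lies on chromosome 2 (62330073 to 62412231, minus strand), Dpep1 on chromosome 8 (123186242 to 123201812, plus strand) and Ggt1 on chromosome 10 (75561604 to 75586200, plus strand). The annotation places 1 other gene across each of Mep1b, Anpep, Enpep, Dpp4 and Dpep1. The Dpep1 partner, Gm20388, is protein coding on the same strand, and the Dpp4 partner, Gm13561, is antisense; with the strand setting of the counting unknown, shared reads cannot be told apart.

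**Figure D1:**
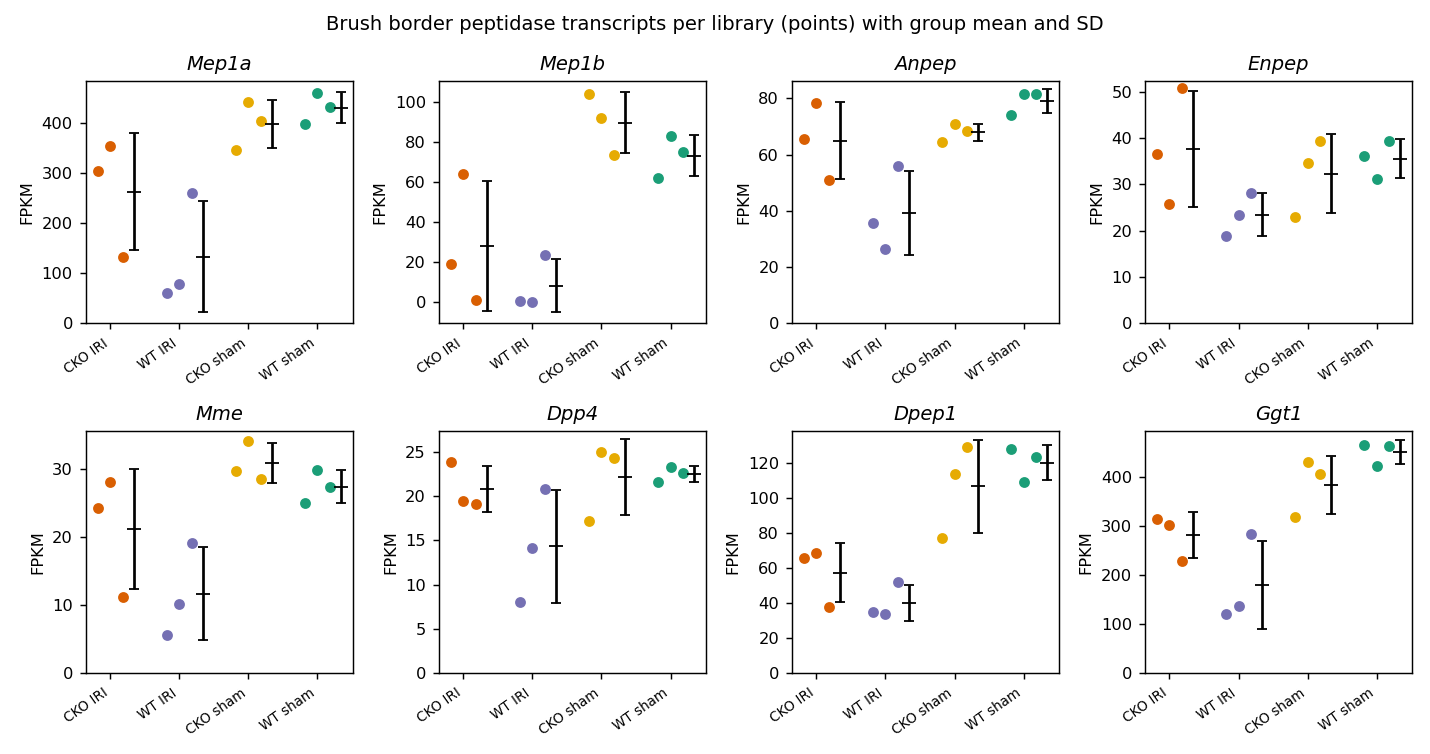
FPKM of each peptidase gene (y axis, linear) in the 4 groups (x axis), 1 point per library, with the group mean and SD beside the points. In WT IRI all 8 genes lie below every WT sham library, and the third WT IRI point, library 49, is the highest of its group in all 8.

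Most of these genes were lower after injury in kidneys labelled WT. Of the 8 members 6 fell (limma, adjusted p under 0.05) and 0 rose, where 11.9% of all tested genes fell and 25.1% rose. The median log2 change of the 8 was -1.37, against 0.12 over all genes tested. Every WT IRI library lay below every WT sham library for all 8 members, a separation seen downward in 19.5% of tested genes. The lowest WT IRI libraries, 13 and 24, also listed more transcripts at 0, 2549 and 2210, against 1603 in WT IRI 49 and 1611 to 1712 in WT sham; of the CKO libraries, CKO sham 1 listed 2499 and the others 1518 to 1882. Transcripts under 1000 bases made up 31.0%, 29.5% and 28.1% of all FPKM in WT IRI 13, 24 and 49, against 24.7% to 25.4% in WT sham. The part of these library differences in the peptidase values was not tested.

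The meprins showed the largest decreases. Meprins are zinc endopeptidases of the astacin family, and the alpha and beta subunits pair into larger complexes at the membrane. Mep1b, the membrane-bound beta subunit, measured 0.88, 0.45 and 23.9 FPKM in WT IRI 13, 24 and 49, against 62.2, 82.9 and 75 FPKM in WT sham 1, 2 and 3. Libraries 13 and 24 were thus near 0, while 49 kept part of the level, and the groups did not overlap. The log2 change was -4.18 (SE 1.17, limma adjusted p = 0.0181), but the call was lost when library 13 (adjusted p = 0.0701) or 24 (0.0644) of WT IRI, or library 2 (0.0534) or 3 (0.0508) of WT sham, was left out. Mep1a, the alpha subunit, measured 59.0, 76.4 and 261 FPKM in WT IRI 13, 24 and 49, against 399, 462 and 434 FPKM in WT sham 1, 2 and 3. Library 49 again stood highest, and the groups were apart. Mep1a fell by 2.02 on the log2 scale (SE 0.50, limma adjusted p = 0.0102). Mep1b made up 1.48%, 0.588% and 8.38% of the summed meprin FPKM in WT IRI 13, 24 and 49, against 13.5% to 15.2% in WT sham. Its share was 6.0%, 15.3% and 1.09% in CKO IRI 7, 15 and 29, against 15.4% to 23.0% in CKO sham, so the beta subunit was the scarcer one in all 12 libraries.

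Enzymes of glutathione breakdown fell together. Ggt1 removes the glutamyl residue from extracellular glutathione and Dpep1 splits the cysteinylglycine that remains. Dpep1 measured 34.7, 33.7 and 51.9 FPKM in WT IRI 13, 24 and 49, against 128, 109 and 124 FPKM in WT sham 1, 2 and 3. No WT IRI library exceeded 43.1% of the WT sham mean. Its log2 change was -1.59 (SE 0.26, limma adjusted p = 0.00152). Ggt1 measured 120, 136 and 283 FPKM in WT IRI 13, 24 and 49, against 464, 421 and 463 FPKM in WT sham 1, 2 and 3. The groups were separate, with WT IRI 49 at 63.0% of the WT sham mean. The change was -1.43 (SE 0.28, limma adjusted p = 0.00343).

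Among the aminopeptidases, Anpep fell and Enpep did not pass the threshold. Anpep, also known as CD13, trims neutral residues from the amino end of peptides. It measured 35.6, 26.4 and 55.8 FPKM in WT IRI 13, 24 and 49, against 74.2, 81.5 and 81.4 FPKM in WT sham 1, 2 and 3. Its WT IRI mean was 49.7% of the WT sham mean, with a log2 change of -1.06 (SE 0.23, limma adjusted p = 0.00627). Enpep trims acidic residues and turns angiotensin II into angiotensin III. It measured 18.9, 23.5 and 28.1 FPKM in WT IRI 13, 24 and 49, against 36.1, 31.2 and 39.4 FPKM in WT sham 1, 2 and 3. Although the groups did not overlap, the change of -0.59 (SE 0.26) had a limma adjusted p of 0.096. It passed with trimmed-mean scaling (0.0378), with array weights (0.0494) and with only the groups compared (0.0449).

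Neprilysin fell, and dipeptidyl peptidase 4 did not pass the threshold. Mme, which degrades natriuretic peptides, bradykinin and enkephalins, measured 5.65, 10.2 and 19.1 FPKM in WT IRI 13, 24 and 49, against 24.9, 29.8 and 27.3 FPKM in WT sham 1, 2 and 3. The groups did not overlap. Mme changed by -1.31 (SE 0.38, limma adjusted p = 0.0219), a call that was lost when library 13 (0.08) or 24 (0.0531) of WT IRI, or library 2 (0.0667) or 3 (0.0584) of WT sham, was left out. Dpp4, which inactivates incretin hormones, measured 8.04, 14.2 and 20.8 FPKM in WT IRI 13, 24 and 49, against 21.6, 23.3 and 22.6 FPKM in WT sham 1, 2 and 3. Library 49 lay just under the lowest sham value. The change of -0.70 (SE 0.27) had a limma adjusted p of 0.0601, and it was -0.37 without WT IRI 13. Dpp4 passed without WT IRI 49 (-1.0, adjusted p = 0.0064), with quantile normalization (0.0346), trimmed-mean scaling (0.0279) or array weights (0.0152).

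In kidneys labelled CKO none of the 8 members passed (limma, adjusted p under 0.05), where 7.19% of tested genes did, 1.48% lower and 5.7% higher. At an unadjusted p under 0.05, 2 members did, Mep1b and Dpep1, where 24.1% of tested genes did. The median log2 change of the 8 was -0.53, against 0.08 over all genes. In 4 members, Mep1b, Mme, Dpep1 and Ggt1, every CKO IRI library lay below every CKO sham library, a separation seen downward in 10.1% of tested genes.

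Dpep1 came closest to a call. It measured 65.7, 68.5 and 37.9 FPKM in CKO IRI 7, 15 and 29, against 77.2, 114 and 129 FPKM in CKO sham 1, 2 and 3. Library 29 was the low injured one and library 1 the low sham one. The log2 change of -0.90 (SE 0.26) had a limma adjusted p of 0.0633, and it passed without CKO sham 1 (-1.12, 0.042), without CKO IRI 15 (-1.05, 0.0428) and with array weights (0.00314). Mep1b measured 19.4, 64.3 and 1.44 FPKM in CKO IRI 7, 15 and 29, against 104, 92.0 and 73.7 FPKM in CKO sham 1, 2 and 3. Its injured libraries ran from 1.6% to 71.6% of the CKO sham mean. The change of -2.60 (SE 1.17, limma adjusted p = 0.203) was -1.30 without CKO IRI 29, and it passed with array weights (-2.14, adjusted p = 0.0315).

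Mep1a measured 303, 355 and 131 FPKM in CKO IRI 7, 15 and 29, against 347, 443 and 405 FPKM in CKO sham 1, 2 and 3, and the groups overlapped. Its log2 change was -0.71 (SE 0.50, limma adjusted p = 0.418) and -0.27 without CKO IRI 29. Mme measured 24.2, 28 and 11.2 FPKM in CKO IRI 7, 15 and 29, against 29.7, 34.1 and 28.5 FPKM in CKO sham 1, 2 and 3. The top injured library thus came within 1 FPKM of the lowest sham library, and the change of -0.61 (SE 0.38, limma adjusted p = 0.363) was -0.23 without CKO IRI 29. Ggt1 measured 313, 302 and 228 FPKM in CKO IRI 7, 15 and 29, against 317, 430 and 404 FPKM in CKO sham 1, 2 and 3. Here CKO sham 1 lay close to the injured libraries, and the change was -0.45 (SE 0.28, limma adjusted p = 0.358).

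Anpep, Dpp4 and Enpep showed overlapping libraries in CKO kidneys. Anpep averaged 64.9 ± 13.7 FPKM in CKO IRI and 67.9 ± 3.16 FPKM in CKO sham (SD, n = 3 each), a log2 change of -0.08 (95% interval from limma -0.60 to 0.43). Dpp4 averaged 20.8 ± 2.60 FPKM in CKO IRI and 22.1 ± 4.32 FPKM in CKO sham, a change of -0.07 (-0.66 to 0.52). Enpep averaged 37.7 ± 12.5 FPKM in CKO IRI and 32.3 ± 8.51 FPKM in CKO sham, a change of 0.20 (-0.37 to 0.77), and CKO IRI 29 held its highest value of all 12 libraries, 50.7 FPKM. The direction of each of these 3 small changes turned in at least 1 fit that left out a library.

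**Figure D2:**
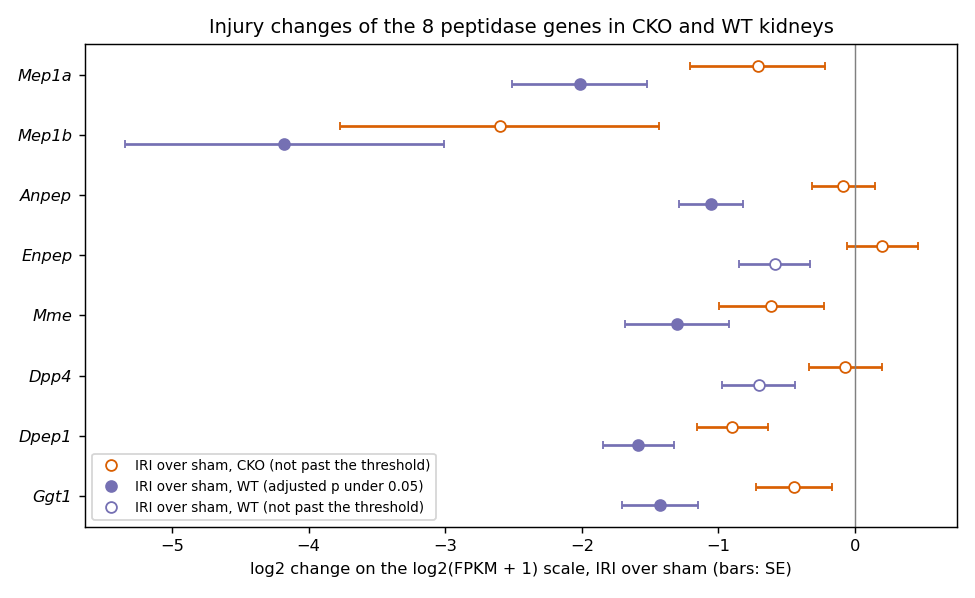
Log2 change of each gene on injury (x axis, log2(FPKM + 1) scale, IRI over sham; bars are SE from limma) in CKO kidneys (upper point of each pair) and WT kidneys (lower point); filled points have a limma adjusted p under 0.05. The 6 filled points are all WT, and for every gene the CKO point lies to the right of the WT point.

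Averaged over both genotypes, 6 of the 8 members fell, where 11.8% of tested genes fell and 25.6% rose. They were Mep1b (-3.39, SE 0.83, limma adjusted p = 0.00913), Mep1a (-1.36), Dpep1 (-1.24), Mme (-0.96), Ggt1 (-0.94) and Anpep (-0.57). Dpep1 and Ggt1 were the members whose 6 injured libraries all lay below all 6 sham libraries, a separation seen downward in 4.11% of tested genes. An exact two-sided permutation test gave each p = 0.00216, the lowest value possible with these group sizes. Full separation always gives this value, so the test restates the separation and adds no support. Dpp4 changed by -0.39 (limma adjusted p = 0.129) and passed without WT IRI 49 (-0.54, 0.0175) or with array weights (0.0257). Enpep stood at -0.19 (95% interval -0.60 to 0.21).

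Whether injury acted differently in the 2 genotypes was tested by the interaction. None of the 8 members passed (limma, lowest adjusted p = 0.211, Anpep), where 0.016% of tested genes did; at an unadjusted p under 0.05, 2 members did, Anpep and Ggt1, against 17.9% of tested genes. All 8 interaction values were above 0, where 55.2% of tested genes had a value below 0. The 8 members share their libraries and varied together, so their common direction is not 8 independent results. A positive value means a smaller decrease or a higher value in CKO. The median was 0.88, against -0.06 over all genes. The values were 1.57 for Mep1b (95% interval -2.07 to 5.22), 1.30 for Mep1a (-0.24 to 2.85), 0.97 for Anpep (0.24 to 1.70) and 0.97 for Ggt1 (0.11 to 1.84). The Mep1b value moved by more than 1.5 times with single libraries left out: it was 0.50 when library 15 and 2.87 when library 29 of CKO IRI was dropped, and 1.02, 0.83 and 2.88 when library 13, 24 or 49 of WT IRI was dropped. Without WT IRI 49, Mep1a (1.95, adjusted p = 0.0492), Anpep (1.25, 0.0335) and Ggt1 (1.36, 0.0279) passed, and the same 3 passed with array weights (0.0475, 0.0286 and 0.036). The Ggt1 value was 0.27 (adjusted p = 0.759) when only its leading transcript, Ggt1-208, was used. That Mep1a, Mep1b, Anpep, Mme, Dpep1 and Ggt1 passed on injury in WT and not in CKO is therefore not shown to be a difference between genotypes.

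After injury, libraries labelled CKO against those labelled WT gave 0 calls among the members and 0% over all tested genes (limma fitted to the IRI groups alone). At an unadjusted p under 0.05, 1 member did, Anpep, where 10.4% of tested genes did. The fit with 1 spread shared by all 4 groups also called 0 of the 8. All 8 log2 differences were above 0, where 54.8% of tested genes had one below 0, with a median of 0.75 against -0.05 over all genes. As in the interaction, these 8 values come from the same libraries and are not independent. The libraries overlapped in all 8 members, where 7.11% of tested genes had all CKO IRI libraries above and 11.5% all below those of WT IRI. The differences ranged from 0.49 for Dpep1 (95% interval -0.19 to 1.16) to 1.86 for Mep1b (-1.57 to 5.29). Without WT IRI 49 they were 1.12 for Ggt1 (adjusted p = 0.149), 1.83 for Mep1a (0.178) and 3.16 for Mep1b (0.272), and without CKO IRI 15 the Mep1b difference was 0.79.

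In the sham groups, CKO against WT gave 0 calls among the members and 0% over all tested genes (limma), and 0 of the 8 had an unadjusted p under 0.05, where 6.54% of tested genes did. The log2 differences lay between -0.24 for Ggt1 (95% interval -0.85 to 0.37) and 0.28 for Mep1b (-2.30 to 2.86). These intervals rest on the spread shared by all 4 groups, injured ones included. For Mep1b the SD on the log2 scale was 0.21 in WT sham and 0.25 in CKO sham, against 2.27 in WT IRI and 2.40 in CKO IRI. Fitted to the sham groups alone, the lowest limma adjusted p was 0.267 (Anpep), and that of Mep1b was 0.398. Anpep was the member whose sham libraries did not overlap, at 64.6, 70.8 and 68.4 FPKM in CKO sham 1, 2 and 3, against 74.2, 81.5 and 81.4 FPKM in WT sham 1, 2 and 3. That separation was seen downward in 13.4% of tested genes, and the difference of -0.22 had a limma adjusted p of 0.866.

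The genes varied together across libraries. Pearson r between members over the 12 libraries, on the log2 scale, had a median of 0.86 over 28 pairs, and 0.88 over the 6 injured libraries alone. These points share their libraries and the injury contrast, so the values are descriptions. The closest pair was Mep1a and Mme (0.98), and the most distant was Mep1b and Enpep (0.21). Enpep was the outlying member, with r of at most 0.72 to any other, which was Dpp4. In WT IRI, library 49 held the highest value of all 8 members, and libraries 13 and 24 shared the lowest. In CKO IRI, library 29 held the lowest value of 7 members and the highest of Enpep. Summed over the 8 genes, the level was 851, 942 and 530 FPKM in CKO IRI 7, 15 and 29 and 282, 321 and 744 FPKM in WT IRI 13, 24 and 49, against 980 to 1243 FPKM in CKO sham and 1211 to 1266 FPKM in WT sham.

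**Figure D3:**
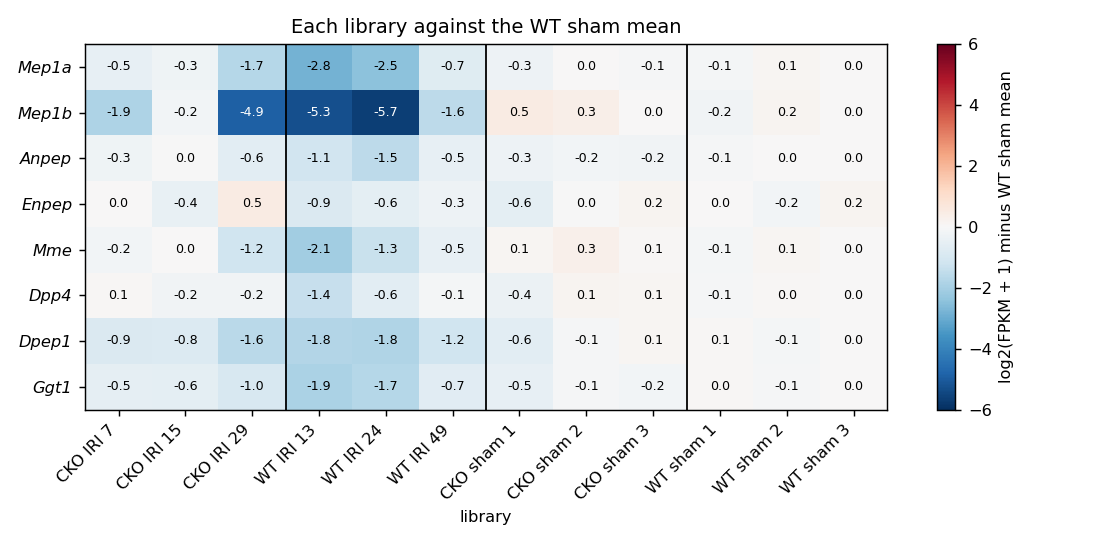
Log2(FPKM + 1) of each gene (rows) in each library (columns) minus the WT sham mean of that gene; blue is lower and red higher. Mep1b reaches -5.7 in WT IRI 24, and WT IRI 49 lies nearer to 0 than WT IRI 13 and 24 in all 8 rows.

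Summed markers of tubular state also differed among the injured libraries of a group. Averaged over genotypes, 10 of the 14 proximal tubule markers fell and 1 rose, and 9 of 9 tubular injury markers rose. Among these 9, Krt20 averaged 0.41 FPKM in CKO sham and 0.35 FPKM in WT sham, and Sox9 0.64 and 0.43 FPKM. Both passed the filter of 1 FPKM in 3 libraries through injured libraries alone, so their rises are no independent support. Over all tested genes 11.8% fell and 25.6% rose. In sums of FPKM the genes of highest level weigh most. Over the 12 libraries Kap, a proximal tubule marker, ran from 286 to 7053 FPKM. Spp1, a tubular injury marker, ran from 945 to 5423 FPKM. Summed levels of the 14 proximal tubule markers were 7592, 9898 and 4604 FPKM in CKO IRI 7, 15 and 29 and 3355, 3058 and 6714 FPKM in WT IRI 13, 24 and 49. Those of the tubular injury markers were 5233, 2847 and 7911 FPKM in CKO IRI 7, 15 and 29 and 7127, 7861 and 4977 FPKM in WT IRI 13, 24 and 49. In CKO sham they were 1236 to 1476 FPKM and in WT sham 1287 to 1377 FPKM. CKO IRI 15 and WT IRI 49 held the highest proximal tubule sum and the lowest injury sum of their groups. CKO IRI 29 held the lowest proximal tubule sum and the highest injury sum of CKO IRI. The part of these tubular states in the peptidase values was not tested.

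Some members are also made by other cells, and markers of those cells were listed. Podocytes carry Mme, and 10 podocyte markers summed to 98.9 to 153 FPKM in CKO IRI, 81.8 to 165 FPKM in WT IRI, 146 to 180 FPKM in CKO sham and 144 to 177 FPKM in WT sham. Myeloid cells carry Anpep, and 12 macrophage and monocyte markers summed to 185 to 272 FPKM in CKO IRI, 178 to 355 FPKM in WT IRI, 154 to 229 FPKM in CKO sham and 121 to 139 FPKM in WT sham. Fibroblasts can carry Anpep, Mme and Dpp4, and 10 fibroblast markers summed to 189 to 299 FPKM in CKO IRI, 152 to 427 FPKM in WT IRI, 66.9 to 103 FPKM in CKO sham and 59.4 to 68.7 FPKM in WT sham. T cells carry Dpp4, and only 4 of 10 lymphocyte markers were in the table, with sums of at most 4.68 FPKM in any library and Cd3e, Cd8a and Nkg7 listed at 0 in some. Of 8 neutrophil markers 2 were in the table, S100a8 and S100a9. Both rose on injury averaged over genotypes, where 25.6% of all tested genes rose. S100a9 averaged 0.75 FPKM in CKO sham and 0.71 FPKM in WT sham, under the 1 FPKM of the filter. The part of these cells in the peptidase values was not tested.

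The 10 genes whose log2 values over the 12 libraries were most like the mean of the 8 centred members were Slc3a1, Ugt3a2, Upb1, Slc22a29, Oxct1, Acat1, Retsat, Hgd, Slc7a12 and Flvcr2, with Pearson r between 0.984 and 0.995. The members were centred but not scaled, so Mep1b, the member of widest spread, weighed most in this mean. The first of the 10 genes, Slc3a1, encodes a subunit of the renal transporter of cystine and dibasic amino acids. It averaged 185 ± 53.4 FPKM in CKO IRI and 105 ± 59.2 FPKM in WT IRI, against 280 ± 34.8 FPKM in CKO sham and 319 ± 19.5 FPKM in WT sham (SD, n = 3 each).

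Other peptidases of cell membranes moved in both directions on injury. Of 20 listed genes 15 were tested, and averaged over genotypes 8 fell and 2 rose, with a median log2 change of -0.54 against 0.10 over all genes. Over all tested genes 11.8% fell and 25.6% rose. Ace, which makes angiotensin II, averaged 21.1 ± 12 FPKM in CKO IRI and 8.70 ± 8.46 FPKM in WT IRI, against 52.8 ± 11.7 FPKM in CKO sham and 64.6 ± 9.44 FPKM in WT sham (SD, n = 3 each). Its averaged change was -2.25 (SE 0.37, limma adjusted p = 0.00112). Ece1, which makes endothelin, fell by 0.88 (0.000297) and also fell in CKO alone (-0.78, 0.0171). Ggt7, a relative of Ggt1 and among the 2 that rose, rose by 0.61 (0.00134) at a low level. It averaged 0.95 ± 0.25 FPKM in CKO IRI and 1.57 ± 0.20 FPKM in WT IRI. In CKO sham it averaged 0.49 ± 0.08 FPKM and in WT sham 0.43 ± 0.16 FPKM. Ggt7 thus passed the filter of 1 FPKM in 3 libraries through injured libraries alone, and its rise is no independent support. In WT alone 8 of the 15 fell and 2 rose, where 11.9% of all tested genes fell and 25.1% rose. In CKO alone 1 fell, where 1.48% of all tested genes fell and 5.7% rose.

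Peptidases inside the cell also moved in both directions. Of 19 tested genes 5 fell and 4 rose averaged over genotypes, with a median of -0.16. Over all tested genes 11.8% fell and 25.6% rose. The falls of smallest p were Dpp7, a lysosomal dipeptidyl peptidase (-1.28, SE 0.21, limma adjusted p = 0.00111), Xpnpep1, an aminopeptidase that cuts before proline (-0.92, 0.00121), and Acy3, an aminoacylase (-0.99, 0.00355). In WT alone 7 fell and 2 rose, where 11.9% of all tested genes fell and 25.1% rose. In CKO alone 1 fell, Dpp7 (-1.22, 0.0333), where 1.48% of all tested genes fell and 5.7% rose.

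Other genes of the brush border fell or did not pass. Of 18 tested genes of its scaffold, hydrolases and endocytic receptors 9 fell and 0 rose averaged over genotypes, with a median of -0.48. In WT alone 9 fell and in CKO alone 0. Over all tested genes 11.8% fell and 25.6% rose averaged over genotypes, and 11.9% fell in WT alone and 1.48% in CKO alone. The smallest p values were those of Lrp2 (megalin, -1.41, SE 0.20, limma adjusted p = 0.000571), its partner Cubn (cubilin, -1.29, 0.00295) and the scaffold Pdzk1 (-0.66, 0.00327). Of 12 tested genes of dipeptide and amino acid uptake and glutathione turnover 5 fell and 0 rose, with a median of -0.29. They included Ggct, a cytosolic enzyme of gamma-glutamyl peptide breakdown (-1.18, SE 0.18, limma adjusted p = 0.00067), Slc3a1 (-1.18, 0.00295) and Slc15a2, the dipeptide transporter PEPT2 (-1.46, 0.00308). Of these 12 genes 6 fell in WT alone and 1 in CKO alone, Ggct (-1.09, 0.0261). Among transcription factors of the proximal tubule, Hnf4a (-0.56, SE 0.13, limma adjusted p = 0.00669) and Cux1 (-0.52, 0.0306) fell averaged over genotypes. No gene of the 4 lists counted above, nor Hnf4a or Cux1, passed in CKO IRI against WT IRI, in CKO sham against WT sham or in the interaction (limma). Over all tested genes 0%, 0% and 0.016% passed.

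At the level of transcripts, Anpep, Enpep, Dpp4 and Mep1b had 1 deposited transcript each, Mme and Mep1a 2, Dpep1 3 and Ggt1 17. The Mep1a transcripts, of 2921 and 2967 bases with 14 exons each, shared the gene nearly equally in most libraries. The longer one, Mep1a-202, made up 53.4%, 31.1% and 47.2% of Mep1a FPKM in CKO IRI 7, 15 and 29 and 42.8% to 49.1% in WT IRI. It made up 16.5%, 36.0% and 48.8% in CKO sham 1, 2 and 3, against 44.6% to 49.2% in WT sham. CKO sham 1 and CKO IRI 15 thus held the lowest shares. CKO sham 1 also had the lowest Mep1a sum of the 6 sham libraries, and CKO IRI 15 the highest of the 6 injured ones.

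The same 2 libraries held the lowest levels of a short Ggt1 transcript. Ggt1-205, a transcript of 787 bases, was at 0.57 FPKM in CKO IRI 15 and 0.70 FPKM in CKO sham 1, against 20.2 and 13 FPKM in CKO IRI 7 and 29, 3.06 to 22.1 FPKM in WT IRI, and 28.7 to 38.5 FPKM in the other 5 sham libraries. Transcripts under 1000 bases made up 52.5%, 36.1% and 50.4% of Ggt1 FPKM in CKO IRI 7, 15 and 29 and 43.8%, 38.7% and 45.6% in WT IRI 13, 24 and 49. They made up 39.8%, 50.1% and 48.5% in CKO sham 1, 2 and 3, against 51.8% to 55.2% in WT sham. By this share WT IRI 24 lay between CKO IRI 15 and CKO sham 1, and all WT IRI libraries lay below WT sham. The leading transcript Ggt1-208, of 2140 bases, measured 95, 58.8 and 59.1 FPKM in CKO IRI 7, 15 and 29, against 140, 149 and 149 FPKM in CKO sham 1, 2 and 3. On this transcript the injury change in CKO was -1.07 (limma adjusted p = 0.0696), where the sum gave -0.45. The other long transcript, Ggt1-201 of 2167 bases, measured 53.4, 134 and 54.1 FPKM in CKO IRI 7, 15 and 29. In CKO sham 1, 2 and 3 it measured 51.0, 65.4 and 58.9 FPKM. In CKO IRI 15 it made up 44.4% of Ggt1 FPKM and Ggt1-208 19.5%, so the assignment between the 2 differed in that library. Transcripts under 1000 bases made up 26.4% to 29.4% of all FPKM in CKO IRI and 28.1% to 31.0% in WT IRI, against 27.4% to 31.5% in CKO sham and 24.7% to 25.4% in WT sham, with CKO IRI 15 and CKO sham 1 the highest of their groups. The part of transcript assignment in the summed values was not tested.

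**Figure D4:**
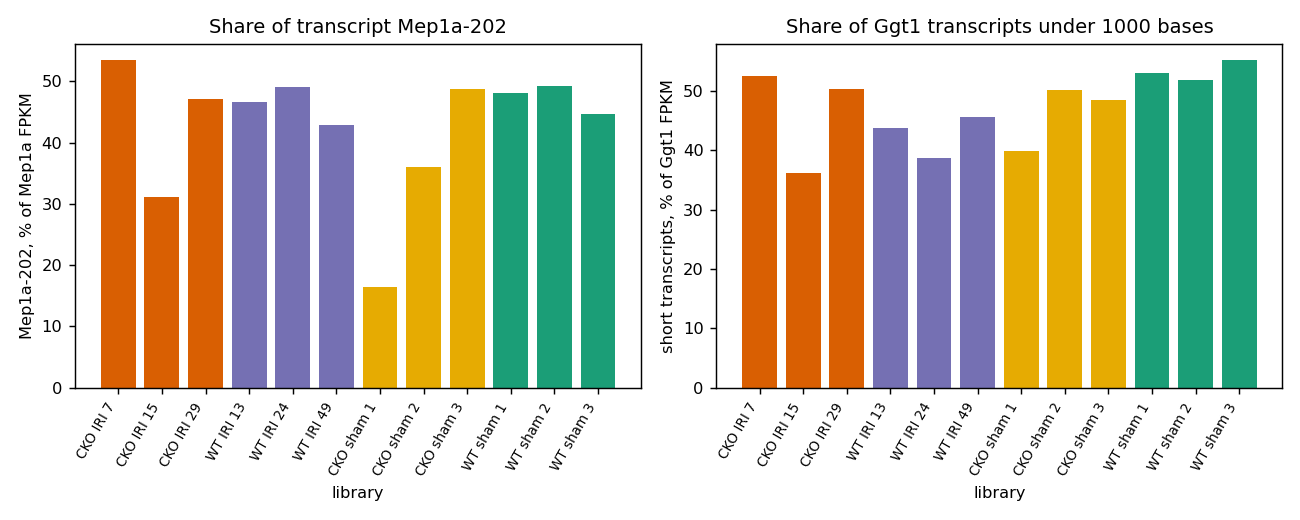
Share of Mep1a FPKM assigned to transcript Mep1a-202 (left, percent) and of Ggt1 FPKM assigned to transcripts under 1000 bases (right, percent), 1 bar per library, coloured by group. CKO sham 1 and CKO IRI 15 have the lowest Mep1a-202 shares, 16.5% and 31.1%, and CKO IRI 15 the lowest share of short Ggt1 transcripts, 36.1%.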

How the data were processed

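RNA of 12 mouse renal cortex libraries, 3 in each of 4 groups, was measured. The authors deposited 1 table of 25790 transcripts, read here as FPKM since the header names no unit; TPM would differ by 1 factor per library. The tools, per the submitters' processing notes, include StringTie, HISAT2 2.1.0 and cutadapt; the build is given as GRCh38, whereas the identifiers are mouse. Annotation and strand setting are not given in the sources used here. In every deposited row at least 1 group mean was 0.5 FPKM or more. Identifiers without version were matched to GENCODE M21 (25740 matched; the other 50 held at most 0.103% of a library) and summed per gene.

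Genes reaching 1 FPKM in 3 or more libraries were tested with limma 3.58.1 in R 4.3.3 on log2(FPKM + 1). The prior variance followed a trend on the mean, and all 4 groups shared the residual variance, except CKO IRI against WT IRI, fitted to the IRI groups alone. Adjusted p-values are Benjamini-Hochberg over all 12469 tested genes within a comparison, with a threshold of 0.05, two-sided. Log2 changes on this scale understate those of low genes. Simulated data with known changes served to test the fit. With the read number unknown, no counting error is given. The members and lists were chosen with earlier results of these data known. All 8 members are named, with the 3 genes of smallest p per list (called ones where 3 were called) and the 10 genes of most similar profile. Part of the results of the transcription factor list and of the motif search is not reported here. The sham libraries share replicate numbers, which correlations of their deviations (-0.031 to 0.004 for equal numbers) do not show to be pairs.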

Additional observations from a re-analysis of the deposited data

How the results depend on the processing

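Alternatives were a pseudocount of 0.1, no filter or one of 5 FPKM, quantile normalization, rescaling to a sum of 1000000, trimmed-mean scaling, array weights, the leading transcript, other sets of groups in the fit, each library left out and, chosen after seeing the data, CKO sham 1 and CKO IRI 15 left out together. Of 848 recomputed member changes 806 kept their direction and side of the threshold, 20 came to pass, 8 no longer passed and 14 turned direction. The causes were not tested. Part of the 848 could not turn direction. Another filter left each log2 change of a member as it was. Mep1b, Anpep, Enpep and Dpp4 had 1 transcript each, which was also the leading one. The count of 0 called members on injury in CKO was 2 with array weights, 0 to 1 with each library left out and 1 without CKO sham 1 and CKO IRI 15 (Dpep1). The interaction count of 0 was 3 with array weights and 0 to 3 with each library left out. On injury in CKO, leaving out each library, or both named above, gave -0.26 to 0.077 for Anpep, -0.034 to 0.44 for Enpep and -0.24 to 0.020 for Dpp4. For CKO sham against WT sham it gave -0.32 to 0.060 for Enpep, -0.13 to 0.13 for Dpp4 and -0.35 to 0.014 for Dpep1. That comparison also turned to 0.0030 for Enpep and 0.085 for Dpp4 with array weights, and to 0.18 for Mep1a and 0.028 for Ggt1 on the leading transcript. The turns without CKO sham 1, to 0.060 for Enpep, 0.13 for Dpp4 and 0.014 for Dpep1, recurred without CKO sham 1 and CKO IRI 15. CKO IRI 15 is not part of a sham comparison, so these repeat the same values. With the replicate block in the sham fit, 0 members passed, and the sham numbers may mark no pairs (correlations -0.031 to 0.004). No paired fit was made after injury, where the groups share no numbers.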

Other observations

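WT IRI 49 held the highest value of its group for all 8 peptidases and the lowest Gpx3 of all 12 libraries, 1075 FPKM. Its summed injury markers, 4977 FPKM, were above every sham library, and its fibroblast and macrophage marker sums, 419 and 355 FPKM, were among the highest 2 of the 12. CKO sham 1 held the highest Mep1b of all libraries, 104 FPKM, and a Mep1b share of the meprin FPKM of 23.0%, against 13.5% to 15.2% in WT sham, while it was the lowest of its group for 6 of the other members.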
